A study of Mus musculus with 4 samples.

Results

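A set of 47 genes for the acid compartment of the cell was read in mouse peritoneal macrophages, out of 54532 genes in the count table. The set was chosen by gene name. It held 3 transcription factors of lysosome biogenesis, 5 lysosomal membrane proteins, 7 proteins of lipid breakdown, 10 glycosidases, 4 sulfatases, 3 genes grouped as proteases and progranulin, and 15 genes of the vacuolar ATPase (V-ATPase). Lysosomes break down proteins, lipids and sugars with hydrolases that work only in acid. The V-ATPase supplies that acid: its cytosolic V1 sector splits ATP and turns a rotor in the membrane-bound V0 sector, which carries protons across the membrane. TFEB, TFE3 and MITF are related transcription factors that bind E-box-like sites in the promoters of many lysosomal genes, and macrophages, which digest what they engulf, are rich in lysosomes.

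The series holds 4 RNA-seq libraries, 1 for each combination of medium and drug. Wild-type macrophages, which the methods describe as thioglycollate-elicited cells of BALB/c mice, received normal medium (0% 4T1) or 30% 4T1-conditioned medium (4T1-CM), the supernatant of a mouse mammary carcinoma line. Each medium was given with the solvent DMSO or with 10 µM CH223191, an antagonist of the aryl hydrocarbon receptor (AHR). The design asks how tumor-conditioned medium acts on macrophages and what part AHR has in it, and nothing in the sources used here tells whether animals were pooled or how long these cells were treated. With 1 library per condition, a pair of libraries has no replicate check and no test. Ratios are log2 ratios of scaled counts, and intervals are exact 95% intervals of how a gene's reads divide between the libraries compared, which cover counting error only. The sole test is an additive fit over the 4 libraries (edgeR quasi-likelihood, Benjamini-Hochberg adjustment over the 13715 genes tested). It takes the effect of the medium to be equal with and without the drug and has 1 residual degree of freedom. "Rose" and "fell" are used only of genes with an adjusted p under 0.05 in that fit.

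Libraries held 15535405 to 17557127 reads and 17395 to 18665 detected genes. All 47 genes passed the filter of at least 10 reads in at least 1 library, and the lowest count of any of them was 241 reads, for Atp6v0c in 4T1-CM with CH223191. The reads of Atp6v0c are uncertain (described with the rotor subunits). Mitochondrial transcripts took 0.633% to 1.79% of reads, with the lowest share in normal medium with DMSO. The AHR target Cyp1b1 had 65 (DMSO) and 19 (CH223191) reads in normal medium, and 361 (DMSO) and 171 (CH223191) in 4T1-CM, so it was lower with the drug in either medium. Of the 6 genes kept from a list of AHR and its targets, 4 were below 0 and 2 above 0 with the drug in each medium, with a median ratio of -0.43 without 4T1-CM and -0.05 with it. In that list 0 passed the additive fit for the drug (lowest edgeR adjusted p = 0.135, 2 with an unadjusted p under 0.05). Of 11 macrophage markers, 7 rose with 4T1-CM (Adgre1, Csf1r, Itgam, Lyz2, Mertk, Fcgr1 and Cd14) and 2 fell (Mrc1 and Lgals3), and their summed level went from 21121 and 27773 CPM (reads scaled to library size) in normal medium to 44707 and 47549 in 4T1-CM. Of 6 fibroblast markers, 4 rose (Col1a1, Col1a2, Col3a1 and Dcn), with a summed level of 30.1 to 63.0 CPM with normal medium and of 127 to 149 with 4T1-CM. Of 9 neutrophil markers, S100a8, Csf3r and Mmp8 rose and Cxcr2 fell, while S100a9, Ly6g and Retnlg had 0 reads in every library. All 8 epithelial tumor cell markers had at most 20 reads in any library. The 6 T cell markers summed to 0.185 to 0.690 CPM and the 4 mesothelial markers to 0 to 0.755. The sum of the B cell markers was 20.2 and 34.3 CPM with normal medium, and 7.94 and 5.29 with 4T1-CM, nearly all from Ighm. Mast cell and eosinophil markers went from 15.7 and 13.9 to 6.0 and 5.48 CPM, mostly from Siglecf. Their part in the lysosomal results was not tested, and in bulk samples fewer cells of a type and less RNA per cell cannot be told apart.

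The E-box CACGTG and its extended form TCACGTGA, the core of the element that TFEB binds in lysosomal promoters, were searched in RefSeq promoter windows (GRCm38.p6, 250 bases before to 50 after the transcription start) of the 40 genes of the set that had one. Both motifs read the same on either strand, and every TCACGTGA contains a CACGTG. TCACGTGA was present for 5 of 40 genes (12.5%; Mcoln1, Gla, Atp6v0d1, Atp6v0e and Atp6v1a), against 1.12% of the 27025 genes with a promoter in the table. CACGTG was present for 12 of 40 (30.0% against 8.09%), adding Lamp1, Gaa, Glb1, Naglu, Lgmn, Sgsh and Atp6v0b. The AHR core TNGCGTG, searched on both strands, was present for Fuca1 alone (2.50% against 5.84%). A match is a description of the letters and not of binding. The lines below show, with motifs in capitals, the promoter with the most E-boxes (Lamp1), the promoter with a repeated TCACGTGA (Gla), a subunit of each V-ATPase sector (Atp6v1a and Atp6v0b) and the motif-bearing gene that rose with 4T1-CM (Gaa). All lie upstream of the RefSeq start, 5′ to 3′ on the gene's strand.
Lamp1, chr8:13159091-13159160, + strand: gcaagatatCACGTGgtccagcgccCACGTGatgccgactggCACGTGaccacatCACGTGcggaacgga
Gla, chrX:134601186-134601245, - strand: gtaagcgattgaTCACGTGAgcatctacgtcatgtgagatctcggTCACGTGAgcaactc
Atp6v1a, chr16:44139375-44139404, - strand: ttttttttttaaaTCACGTGAtaggcttaa
Atp6v0b, chr4:117887335-117887374, - strand: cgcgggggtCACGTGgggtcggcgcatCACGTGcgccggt
Gaa, chr11:119267808-119267837, + strand: ggttttctgtgcgatCACGTGtttgactct
The 4 E-boxes of Lamp1 began 61, 45, 28 and 15 bases before the start, and the 2 extended motifs of Gla began 228 and 195 bases before it. In Mcoln1, which encodes the calcium channel of the lysosomal membrane, the extended motif began 46 bases before the start.

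The 47 genes together took 5.80% (DMSO) and 5.25% (CH223191) of all reads in normal medium, and 4.28% (DMSO) and 4.26% (CH223191) in 4T1-CM. Both 4T1-CM libraries were thus below both libraries of normal medium. Psap, which encodes prosaposin, the precursor of the saposins that present sphingolipids to their hydrolases, supplied more than any other gene of the set, with 3.0%, 2.51%, 2.06% and 2.13% of reads in that order of libraries. It was the most abundant gene of the whole table in both libraries of normal medium and ranked 3 and 4 in those of 4T1-CM. Without Psap, the share was 2.80%, 2.73%, 2.22% and 2.13%.

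Levels below are RPKM (reads per kilobase of gene, scaled to library size). They are given in a fixed order: the DMSO and then the CH223191 library of normal medium, followed by the DMSO and then the CH223191 library of 4T1-CM. The gene length in the table covers all annotated exons, so the level of a gene with many isoforms is understated. On this scale the set ran from a mean of 5.88 for Atp6v0c to 8826 for Psap, followed by Lamp1 with 930.1, Lgmn with 743 and Lipa with 594. The level of Atp6v0c is uncertain. Its transcripts share sequence with a pseudogene that was given far more reads (described with the rotor subunits).

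**Figure D1:**
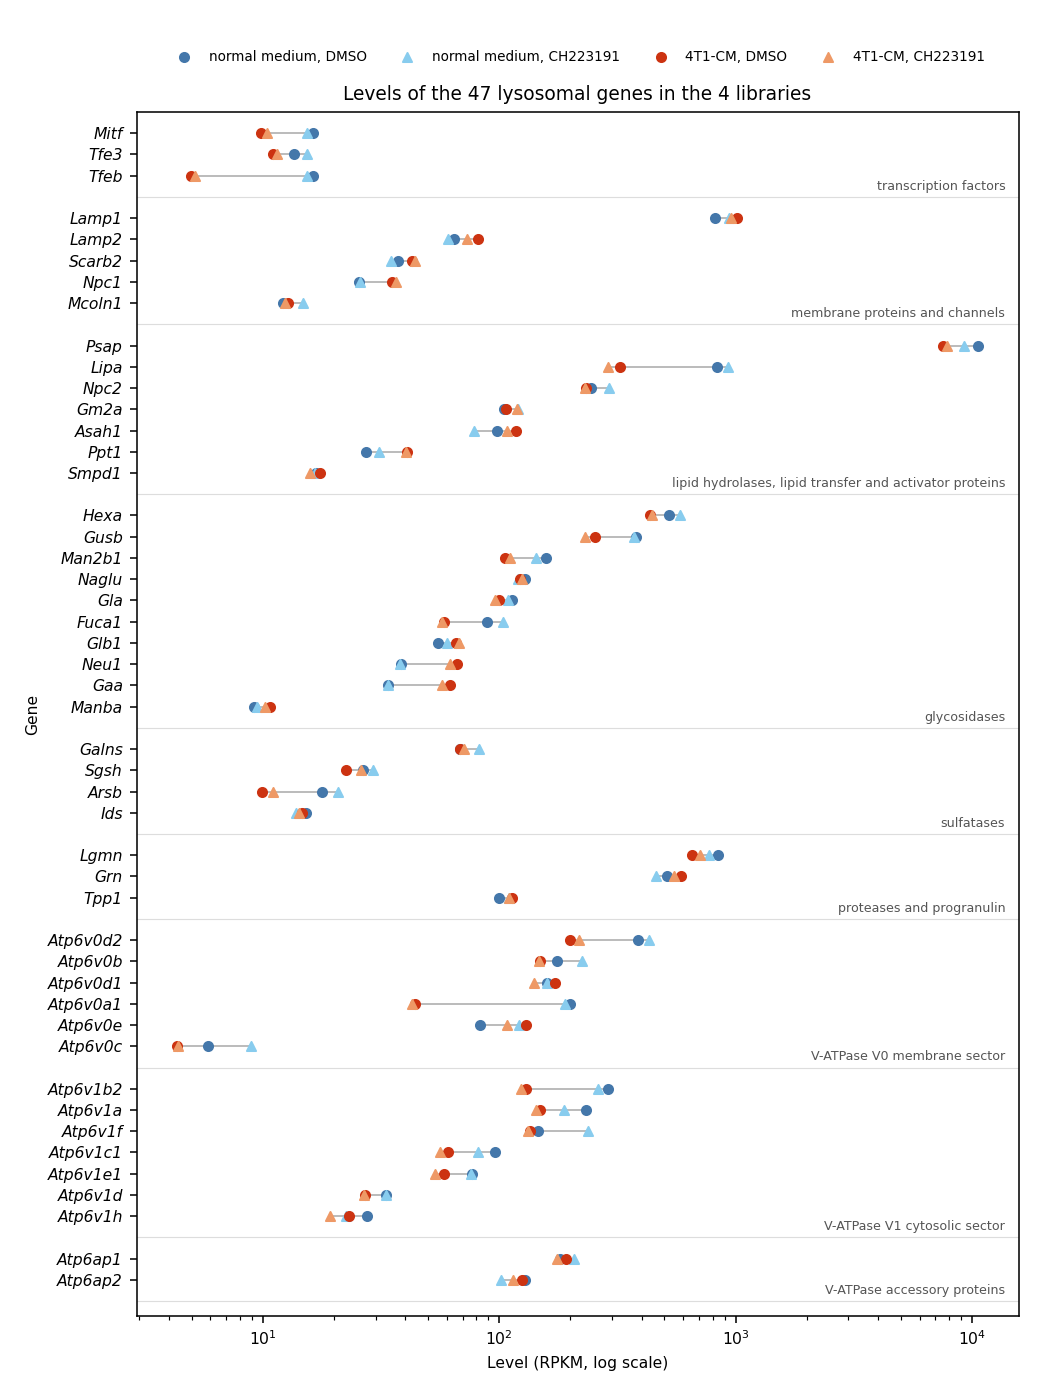
Level of each of the 47 genes in the 4 libraries, in RPKM on a log axis, grouped by role; circles are DMSO, triangles CH223191, blue normal medium and red or orange 4T1-CM, and the gray line spans the 4 values. For Tfeb, Lipa, Arsb, Atp6v0a1, Atp6v0d2 and Atp6v1b2 both 4T1-CM values lie well below both values of normal medium, and for Gaa and Neu1 above them.

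With 4T1-CM, the set was more often lower than higher, and no gene of it was at least 2-fold higher. Tfeb, Lipa, Atp6v0a1 and Atp6v1b2 were at least 2-fold lower both with DMSO and with CH223191. With DMSO, 0 of 47 genes were at least 2-fold higher (12.2% of all genes tested) and 4 were at least 2-fold lower (6.12% of all genes). At 1.5-fold, 3 were higher (20.0% of all genes) and 10 lower (15.2%). With CH223191, the counts were 0 higher (12.0%) and 5 lower (7.86%) at 2-fold, and 2 higher (20.8%) and 11 lower (17.5%) at 1.5-fold. Both the 5 and the 11 include Atp6v0c, whose reads are uncertain (described with the rotor subunits). The genes of the set are deeply read, and of the 7134 genes that reached 200 reads in all 4 libraries fewer passed these folds: with DMSO, 3.67% were 2-fold higher, 2.59% 2-fold lower, 9.10% 1.5-fold higher and 11.3% 1.5-fold lower, and with CH223191 the shares were 3.98%, 3.84%, 10.7% and 14.1%. The median ratio of the set was -0.11 with DMSO and -0.22 with CH223191, beside 0.01 and 0.02 for all genes tested and -0.06 and -0.04 for the deeply read genes.

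The comparison with DMSO and that with CH223191 have no library in common. Past 2-fold in both, 4 genes of the set were lower (3.38% of all genes) and 0 higher (8.18%). At 1.5-fold, 7 were lower in both (9.6%), adding Arsb, Fuca1 and Atp6v0d2, and 2 were higher in both (13.9%), Gaa and Neu1. For the deeply read genes the share in both was not computed. It can be no larger than the smaller single-comparison share, which was that with DMSO. At 2-fold that share was 3.67% higher and 2.59% lower, and at 1.5-fold 9.10% and 11.3%. Ratios were below 0 in both comparisons for 25 genes (37.8% of all genes tested), above 0 in both for 12 (39.3%), and of opposite sign for 10 (22.9%). In the additive fit 17 of 47 genes fell (16.2% of all genes tested) and 4 rose (16.4%), and the lowest adjusted p of the set was 5.83e-07, for Atp6v0a1. Both the 17 and the 25 include Atp6v0c, whose reads are uncertain. Of the 7134 deeply read genes, 44.4% were below 0 in both comparisons and 35.2% above 0 in both, and 21.3% fell and 15.5% rose.

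**Figure D2:**
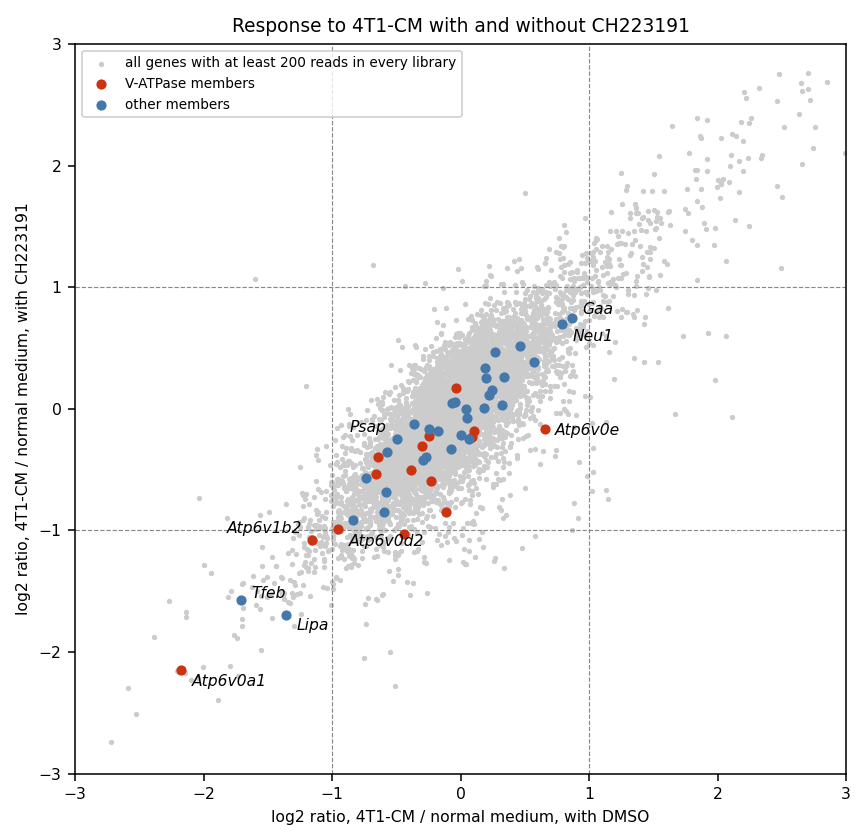
log2 ratio of 4T1-CM over normal medium with DMSO (horizontal axis) and with CH223191 (vertical axis); gray points are the 7134 genes that reached 200 reads in all 4 libraries, red points the 15 V-ATPase genes and blue points the other 32 genes of the set, and dashed lines mark 2-fold. Atp6v0a1, Tfeb, Lipa and Atp6v1b2 lie past 2-fold lower on both axes, and no gene of the set lies past 2-fold higher on either.

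All 3 transcription factors fell. Of all genes tested, 32.6% passed the fit for 4T1-CM (16.4% rose and 16.2% fell). Of the deeply read genes 15.5% rose and 21.3% fell. The counts by role below are to be read beside these shares. Tfeb, which drives lysosomal genes when it is released from mTORC1 control at the lysosome surface, lies on chr17:47737030-47792419 and had levels of 16.3, 15.4, 4.97 and 5.17. Both 4T1-CM values were below both values in normal medium, 3.27-fold lower with DMSO and 2.98-fold lower with CH223191. Its ratio was -1.71 with DMSO (interval -1.86 to -1.56) and -1.57 with CH223191 (-1.73 to -1.42), with an adjusted p of 5.41e-06 in edgeR's additive fit. Mitf, a relative of TFEB known best from melanocytes and osteoclasts, had levels of 16.4, 15.5, 9.80 and 10.4. Its ratio was -0.74 with DMSO and -0.57 with CH223191 (edgeR adjusted p = 0.00251). Tfe3, the third relative, had levels of 13.6, 15.3, 11.1 and 11.4. Its ratios were nearer to 0 than those of the other two, -0.29 and -0.42 (edgeR adjusted p = 0.0484). In normal medium the 3 factors stood at similar levels, and in 4T1-CM Tfeb stood below the other two.

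Of the 5 membrane proteins, 1 rose, 0 fell and the other 4 did not pass the test (20.0% passed, against 32.6% of all genes tested). Npc1, the membrane protein that takes cholesterol out of the lysosome, had levels of 25.4, 25.7, 35.1 and 36.7. Its ratio was 0.47 with DMSO and 0.51 with CH223191 (edgeR adjusted p = 0.0127), and neither medium's values overlapped the other's. Lamp1, an abundant glycoprotein of the lysosomal membrane, had levels of 816, 934, 1017 and 953. The value in 4T1-CM with CH223191 was close to that in normal medium with CH223191, and the ratios were 0.32 (0.30 to 0.34) and 0.03 (0.01 to 0.05). Lamp2, its partner, which is also needed for chaperone-mediated autophagy, had levels of 64.5, 60.6, 81.7 and 72.8, with ratios of 0.34 and 0.26 that did not pass the test (edgeR adjusted p = 0.0783). Scarb2, the receptor that carries β-glucocerebrosidase to lysosomes, had ratios of 0.19 and 0.33. Mcoln1 had the lowest level of the group, 12.2, 14.8, 12.8 and 12.4. Its ratios of 0.07 (-0.03 to 0.17) and -0.25 (-0.35 to -0.15) pointed in opposite directions.

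Among the proteins of lipid breakdown, Lipa and Psap fell and Ppt1 rose (3 of 7 passed, or 42.9%, against 32.6% of all genes tested). Lipa, on chr19:34492318-34527474, encodes lysosomal acid lipase, which frees cholesterol and fatty acids from the esters of lipoproteins and lipid droplets. Its levels were 835, 927, 325 and 287, 2.57-fold lower with 4T1-CM in the presence of DMSO and 3.23-fold lower in the presence of CH223191. The ratio was -1.36 (-1.39 to -1.33) with DMSO and -1.69 (-1.72 to -1.66) with CH223191, and the adjusted p in edgeR's additive fit was 8.67e-06. Psap, on chr10:60277627-60302597, had levels of 10643, 9288, 7546 and 7827. Its ratios were -0.50 (-0.50 to -0.49) and -0.25 (-0.25 to -0.24), with an edgeR adjusted p of 0.0122. Both 4T1-CM values were below both values in normal medium. Ppt1, which removes palmitate from proteins, had levels of 27.4, 31.0, 40.7 and 40.3, with ratios of 0.57 and 0.38 (edgeR adjusted p = 0.0152). Npc2, the soluble cholesterol carrier that works with NPC1, had levels of 244, 291, 232 and 232. Only the library of normal medium with CH223191 stood apart, and the ratios were -0.07 and -0.33. Smpd1, acid sphingomyelinase, had the lowest level of the group (16.8, 16.7, 17.4 and 15.8), and both its intervals included 0. The acid ceramidase gene Asah1 had ratios of 0.27 and 0.46, and the ganglioside activator Gm2a 0.04 and 0.00, neither past the test.

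The glycosidases split. Gaa and Neu1 rose, Gusb, Man2b1 and Fuca1 fell, and the other 5 did not pass the test. Gaa, acid α-glucosidase, which breaks down lysosomal glycogen, lies on chr11:119267887-119285454 and had levels of 33.9, 34.0, 61.8 and 57.1. Its ratio was 0.87 (0.80 to 0.94) with DMSO and 0.75 (0.68 to 0.82) with CH223191 (edgeR adjusted p = 0.000775). Neu1, the lysosomal sialidase on chr17:34931253-34935953, had levels of 38.5, 38.1, 66.6 and 61.8. For it the ratio was 0.79 and 0.70 (edgeR adjusted p = 0.00129). For both genes the 2 libraries of a medium differed by far less than the media did. Fuca1, α-fucosidase, had levels of 88.6, 104, 58.6 and 57.5, with ratios of -0.60 and -0.85 (edgeR adjusted p = 0.00193). Gusb, β-glucuronidase, had levels of 381, 370.4, 255 and 230.3, with ratios of -0.58 and -0.69 (edgeR adjusted p = 0.00206). Man2b1, α-mannosidase, had ratios of -0.57 and -0.36 (edgeR adjusted p = 0.014). Hexa, the α subunit of β-hexosaminidase, had the highest level of the group, 524, 585, 435 and 444, and Manba, β-mannosidase, the lowest, 9.22, 9.46, 10.8 and 10.3. Hexa had ratios of -0.27 and -0.40, just short of the threshold (edgeR adjusted p = 0.0536), and those of Gla, Glb1, Naglu and Manba lay between -0.19 and 0.25.

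Of the 4 sulfatases, Arsb alone passed the test and fell (25.0% passed, against 32.6% of all genes tested). Arsb, which removes sulfate from dermatan and chondroitin chains, had levels of 17.8, 20.8, 9.96 and 11.1 and ratios of -0.84 (-0.95 to -0.72) and -0.91 (-1.02 to -0.80), with an edgeR adjusted p of 0.000384. Galns, which acts on keratan sulfate, had the highest level of the group, 68.1, 82.5, 68.2 and 71.0. Only normal medium with CH223191 stood above the other 3 libraries. Ids, which acts on heparan and dermatan sulfate, had the lowest level, 15.2, 13.8, 14.7 and 14.3, and its intervals included 0 in both comparisons. Sgsh, another enzyme of heparan sulfate breakdown, had ratios of -0.24 and -0.17 and did not pass the test.

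None of the proteases and progranulin passed the test in either direction (0 of 3, against 32.6% of all genes tested). Lgmn, the asparaginyl endopeptidase that also matures cathepsins, had levels of 840.0, 771, 655 and 706, with ratios of -0.36 and -0.13. Grn, progranulin, a secreted and lysosomal glycoprotein that is cut into granulins, had levels of 512, 461, 586 and 550.3, with ratios of 0.20 and 0.26. Tpp1, a tripeptidyl peptidase, was the lowest of the 3 at 99.5, 109.7, 113 and 110.3.

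Of the 15 V-ATPase genes, 8 fell with 4T1-CM (16.2% of all genes tested) and 0 rose (16.4%). Ratios were below 0 in both comparisons for 11 (37.8% of all genes), above 0 in both for 0 (39.3%) and of opposite sign for 4 (22.9%). Of the 7134 deeply read genes, 21.3% fell and 15.5% rose, and 44.4% were below 0 in both and 35.2% above 0 in both. Both the 8 and the 11 include Atp6v0c, whose reads are uncertain (described with the rotor subunits). Without it, a count added after seeing the data, 7 of 14 fell and 10 were below 0 in both. Over all 15 genes, Atp6v0c included, the median was -0.30 with DMSO and -0.50 with CH223191. For the other 32 genes of the set it was -0.02 and -0.10, a difference that was not tested. Summed over the 15 genes, the level was 2218, 2341, 1599.7 and 1506.

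**Figure D3:**
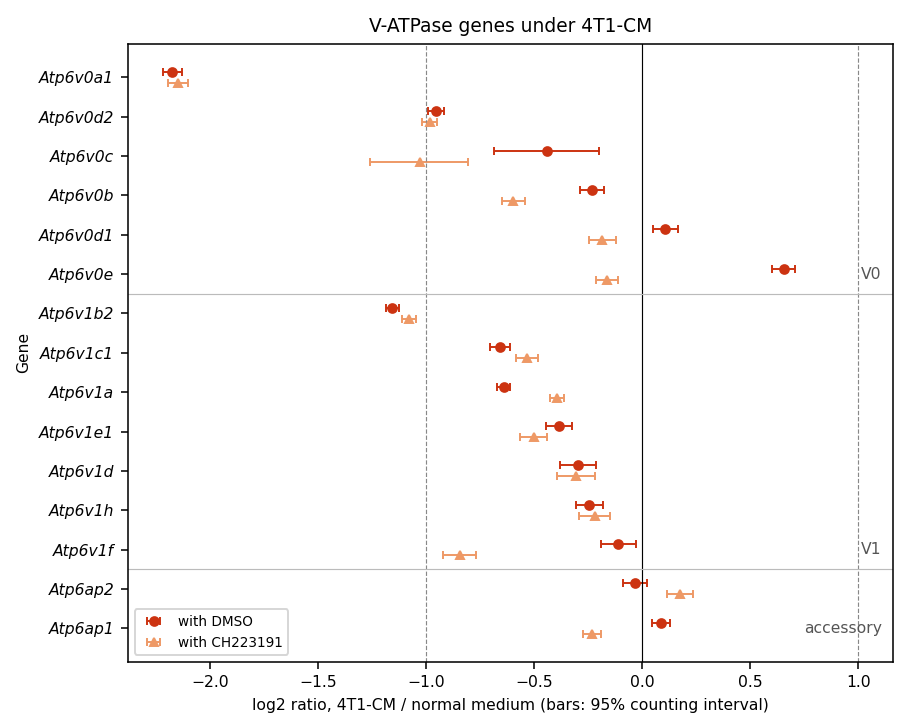
log2 ratio of 4T1-CM over normal medium for the 15 V-ATPase genes, with DMSO (red circles) and with CH223191 (orange triangles); bars are 95% counting intervals, gray lines separate the V0 sector, the V1 sector and the accessory proteins, and dashed lines mark 2-fold. Atp6v0a1 is lowest near -2.2 in both comparisons, all V1 genes lie below 0 in both, and Atp6v0e has ratios of opposite sign.

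The gene with the lowest ratio of the set in both comparisons, Atp6v0a1, belongs to the V0 sector. Atp6v0a1 encodes the a1 form of subunit a, the large membrane subunit that steers the pump to its compartment and forms the proton path, and lies on chr11:101009452-101063719. Its levels were 198, 189, 43.9 and 42.7, 4.52-fold lower with 4T1-CM under DMSO and 4.43-fold lower under CH223191. The ratio was -2.18 (-2.22 to -2.13) with DMSO and -2.15 (-2.19 to -2.10) with CH223191. Atp6v0d2, the d2 form of the subunit that caps the rotor, found in osteoclasts and other myeloid cells, had levels of 387, 429.9, 199.6 and 217. It was just short of 2-fold lower, with ratios of -0.95 and -0.98 (edgeR adjusted p = 0.000153). Its ubiquitous counterpart Atp6v0d1 had levels of 160.1, 159, 172 and 139.9 and ratios of 0.11 and -0.19, and did not pass the test (edgeR adjusted p = 0.845).

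Subunits a and d each come from several genes, whose shares are given here for single libraries and were not tested. Per length, Atp6v0a1 was 35.5% and 33.0% of subunit a reads in normal medium (DMSO and CH223191) and 17.9% and 17.5% in 4T1-CM. Tcirg1, the a3 form known from osteoclasts and lysosomes, fell as well, with levels of 349.5, 376, 190.1 and 192 and ratios of -0.88 and -0.97 (edgeR adjusted p = 0.000185), but its share was 62.5% and 65.5% without 4T1-CM and 77.6% and 78.4% with it. Atp6v0a2 was 1.96%, 1.46%, 4.47% and 4.19%, and Atp6v0a4, the a4 form of kidney and inner ear, had at most 1 read. Within subunit d, the d2 form was 70.7%, 73.0%, 53.7% and 60.8%. The kidney form of the B subunit, Atp6v1b1, had 0 reads in every library, which allows up to 3 reads, or 0.171 to 0.189 CPM.

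**Figure D4:**
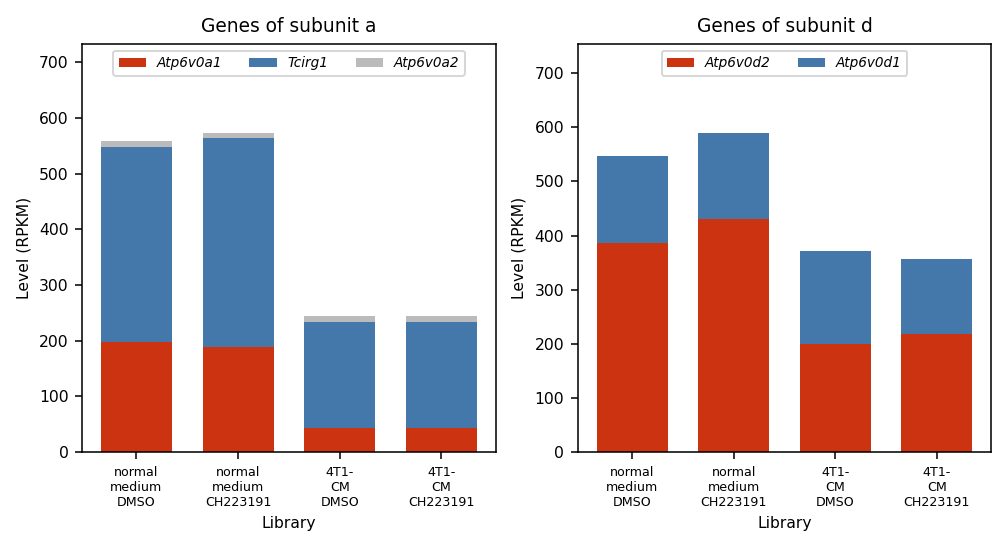
Level of the genes that encode subunit a (left) and subunit d (right) of the V-ATPase in the 4 libraries, stacked, in RPKM; there is 1 library per bar and no error can be shown. The stacks are lower in 4T1-CM, and in the left panel Atp6v0a1 takes 17.9% and 17.5% of the stack there against 35.5% and 33.0% in normal medium.

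Of the other V0 genes, Atp6v0b and Atp6v0c encode subunits of the rotor, and Atp6v0e a small subunit outside it. Atp6v0b, the c″ subunit, had levels of 175, 224, 149 and 148 and ratios of -0.23 and -0.60 (edgeR adjusted p = 0.0393). Atp6v0e, the e subunit, had levels of 82.6, 121, 130.0 and 108. Normal medium with DMSO stood below the other 3 libraries, so the ratio was 0.65 (0.60 to 0.71) with DMSO and -0.16 (-0.22 to -0.11) with CH223191, and the gene did not pass the test (edgeR adjusted p = 0.318). Atp6v0c, the main c subunit of the rotor, had levels of 5.88, 8.96, 4.32 and 4.38 and ratios of -0.44 (-0.69 to -0.20) and -1.03 (-1.26 to -0.80), with an edgeR adjusted p of 0.00884. That value is uncertain: 10.8% of the 50-base words of its transcripts also occur in the pseudogene Atp6v0c-ps2, which was given 5810, 12297, 8021 and 8428 reads against 317, 482, 256 and 241 for Atp6v0c. With the reads of both added, an alternative chosen after seeing the data, the ratios were 0.30 with DMSO and -0.59 with CH223191, so the direction with DMSO turned.

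The V1 genes were below 0 in both comparisons for 7 of 7 (37.8% of all genes tested, 44.4% of the deeply read genes). Of the 7, 4 fell (16.2% and 21.3%). Atp6v1b2, the B subunit, which shares the nucleotide-binding sites with subunit A, lies on chr8:69088646-69113711 and had levels of 289, 263, 129 and 124. Its ratio was -1.16 (-1.19 to -1.12) with DMSO and -1.08 (-1.11 to -1.05) with CH223191 (edgeR adjusted p = 5.28e-05). Atp6v1a, the catalytic A subunit, had levels of 233, 188, 149.5 and 143 and ratios of -0.64 and -0.39 (edgeR adjusted p = 0.00875). Per length, the RNA level of subunit B stood above that of subunit A without 4T1-CM and below it with 4T1-CM. That order rests on the gene lengths used, and RNA levels do not give the number of subunits in the complex. Atp6v1c1, the C subunit that leaves when V1 and V0 come apart, had levels of 95.6, 81.1, 60.5 and 56.0 and ratios of -0.66 and -0.53 (edgeR adjusted p = 0.00461). Atp6v1e1, of the outer stalk, had ratios of -0.39 and -0.50 (edgeR adjusted p = 0.0208). Atp6v1f, a small subunit of the central stalk, had levels of 145, 237, 135 and 132 and ratios of -0.11 and -0.85 that did not pass the test (edgeR adjusted p = 0.0508). Only the library of normal medium with CH223191 stood apart. Atp6v1d had ratios of -0.30 and -0.31, and Atp6v1h, the lowest of the sector at 27.6, 22.4, 23.2 and 19.3, had -0.25 and -0.22. The accessory proteins Atp6ap1 (181, 207, 192 and 176) and Atp6ap2, the prorenin receptor (128, 102, 125 and 115), had ratios between -0.23 and 0.17.

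The promoter motifs can be set beside these values. Of the 12 genes with a CACGTG, 1 rose (Gaa), 2 fell (Atp6v0b and Atp6v1a) and 9 did not pass the test. With DMSO their ratios ran from -0.64 to 0.87, with a median of 0.00. With CH223191 their median was -0.17. Of the 28 genes whose promoter window lacked it, 2 rose and 12 fell, Tfeb, Lipa, Atp6v0a1 and the uncertain Atp6v0c among them. Of all genes tested 16.4% rose and 16.2% fell, and of the deeply read genes 15.5% and 21.3%. The median of these 28 was -0.19 with DMSO and -0.32 with CH223191. Whether these differ was not tested, and Npc1, Asah1, Galns, Atp6v0d2, Atp6v1b2, Atp6v1c1 and Atp6v1h had no matched promoter.

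Few genes of the set differed with CH223191. In normal medium 2 of 47 genes were at least 1.5-fold higher (10.6% of all genes tested), Atp6v1f and Atp6v0c, 0 were at least 1.5-fold lower (7.49%), and 0 were 2-fold changed either way (8.15%). In 4T1-CM 0 were at least 1.5-fold higher (6.23%) or lower (6.02%), and 0 were 2-fold changed (5.42%). Among the deeply read genes these 1.5-fold shares were 3.13% higher and 1.16% lower without 4T1-CM, and 0.252% and 0.126% with it. In the additive fit 0 genes of the set passed for the drug (0.0802% of all genes tested, or 11 genes), 1 had an unadjusted p under 0.05, and the lowest edgeR adjusted p was 0.776. Over the 47 genes, CH223191 gave a median ratio of -0.01 without 4T1-CM and -0.03 with it. The comparisons of the drug and of 4T1-CM use the same libraries, so that a high value in normal medium with CH223191 enters 2 of them.

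The library of normal medium with CH223191 gave the highest value of Atp6v1f, with a ratio to DMSO of 0.71 (0.64 to 0.78), and of Atp6v0c, with 0.61 (0.40 to 0.82). With the Atp6v0c-ps2 reads added, the latter ratio was 1.06, past 2-fold. Atp6v0e had 0.55 (0.50 to 0.61) there and -0.26 (-0.31 to -0.21) in 4T1-CM. In 4T1-CM the ratio was -0.03 for Atp6v1f and 0.02 for Atp6v0c, with intervals that included 0. These are among the shortest genes of the set, with longest coding sequences of 357, 465 and 312 bases in GENCODE M21. Among all 894 protein-coding genes under 500 coding bases that reached 10 reads in all 4 libraries, the median ratio of CH223191 to DMSO in normal medium was 0.22. It was 0.07 from 500 to 1000 bases, -0.01 from 1000 to 2000 and -0.07 at 2000 or more. In 4T1-CM these medians lay between -0.02 and 0.02. For 4T1-CM against normal medium with CH223191 they ran from -0.40 under 500 bases to 0.15 at 2000 or more, and with DMSO from -0.14 to 0.06. The part of coding length in the values of the small V-ATPase subunits was not tested.

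**Figure D5:**
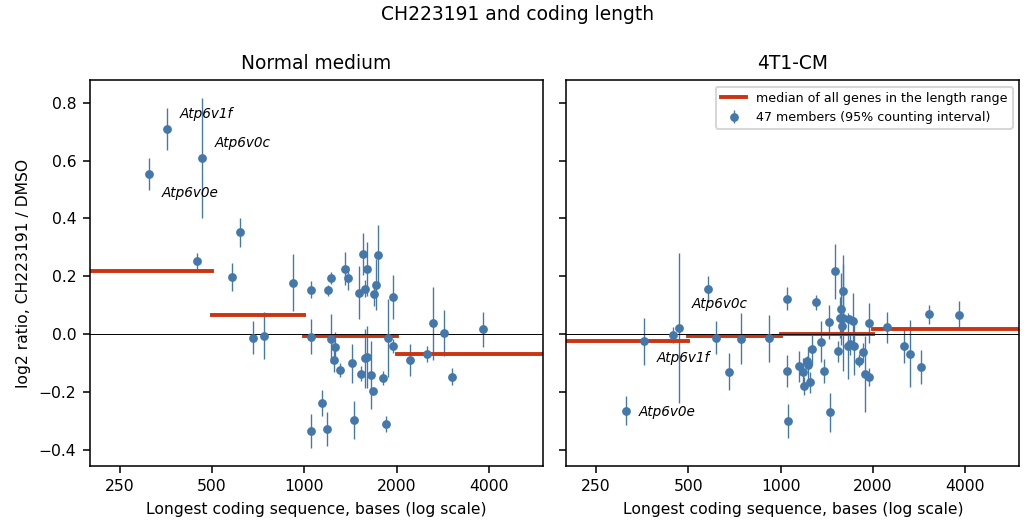
log2 ratio of CH223191 over DMSO against the longest coding sequence (log axis, bases) for the 47 genes in normal medium (left) and in 4T1-CM (right); bars are 95% counting intervals, and red lines are the medians, per length range, of protein-coding genes that reached 10 reads in all 4 libraries. In normal medium Atp6v1f, Atp6v0c and Atp6v0e lie above the red line of 0.22 for the shortest genes, and in 4T1-CM the red lines lie near 0.

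Other genes of the same pathways were read from lists. Of 43 other lysosomal hydrolases and transporters, 14 rose (16.4% of all genes tested) and 6 fell (16.2%, a share near that of the list), and their median ratio was 0.12 with DMSO and 0.07 with CH223191. Acp5, the tartrate-resistant acid phosphatase, had levels of 32.1, 51.5, 256 and 222, with ratios of 2.99 and 2.11. Plbd1, a phospholipase B-like protein, had ratios of 2.14 and 1.55. Lyz2, the lysozyme of macrophages, had 1.47 and 1.23. These 3 were the genes of that list past 2-fold higher in both comparisons, and 0 were at least 2-fold lower in both. Of 19 other V-ATPase subunits and assembly factors, 13 were kept, 2 rose (Dmxl2 and Ncoa7) and 3 fell (Tcirg1, Atp6v1g1 and Ccdc115). These counts are near the shares of the deeply read genes, 15.5% and 21.3% (16.4% and 16.2% of all genes tested). Dmxl2, a rabconnectin that helps V1 join V0, had levels of 5.60, 5.07, 11.3 and 11.8 and ratios of 1.02 and 1.22.

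TFEB is held in the cytosol by mTORC1, which the Ragulator and Rag proteins bring to the lysosome. Of 21 genes of that control, 7 fell (16.2% of all genes tested, 21.3% of the deeply read genes) and 0 rose (16.4% and 15.5%). Those that fell were the Ragulator genes Lamtor1, Lamtor2, Lamtor4 and Lamtor5, and Tsc1, Flcn and Rragb. Lamtor1, the Ragulator anchor, had levels of 75.4, 86.9, 43.7 and 43.7 and ratios of -0.79 and -0.99. For tumor-conditioned over normal medium, protein-coding genes under 500 coding bases had a median ratio of -0.14 with DMSO and -0.40 with CH223191. The part of coding length in the fall of the Ragulator genes was not tested. Rragb was at least 2-fold lower in both comparisons but had only 35, 22, 17 and 3 reads. Of 14 genes that sort enzymes by mannose 6-phosphate, 2 fell (Nagpa and Gga1), a share near that of all genes, and 0 rose. Of 22 autophagy genes, 5 rose and 5 fell, against 16.4% and 16.2% of all genes, and 0 were 2-fold changed in a common direction in both comparisons. Of 10 genes of multinucleated giant cells and osteoclasts, cells known to use Atp6v0d2 and Tcirg1, 8 were kept. Of these Acp5, Ctsk and Mmp9 rose, Dcstamp, Itgb3 and Tnfrsf11a fell, and Calcr had 0 reads and Oscar at most 2.

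Sequence shared with another gene was looked for in each gene of the set. At least 5% of the 50-base words of the transcripts occurred in another gene for 7 of the 47 genes, and for the other 40 at most 4.39% did. Beside Atp6v0c these were Arsb (38.5%, with Gm26527), Sgsh (Card14), Atp6v1f (AC169506.3), Hexa (Tmem202), Atp6v0b (Gm12841) and Lamp1 (Grtp1). Gm26527 and Gm12841 had 0 reads, and the partners of the other 4 had at most 327. Adding them left each sign as it was. Reads that a counter leaves out because they fit several genes are in neither count, and the counter is not known here.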

How the data were processed

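The authors deposited raw read counts per gene, without normalization, as a single table of 54532 genes with 4 columns, which were matched to the samples by their names and titles. The submitters' processing notes name HISAT2 2.0.5 and DESeq2. The counter, strand setting and genome build are not given in the sources used here, so overlapping and near-identical genes are uncertain. Gene coordinates were identical to GENCODE M21 (GRCm38) for 45 of the 47 genes. The genes and lists were chosen with earlier results of these data known.

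Kept were the 13715 genes that reached 10 reads in some library. Libraries were scaled by TMM (edgeR 4.0.16, R 4.3.3), and 0.5 reads were added as a prior count to form log2 ratios. A further 103 entries with a repeated symbol were named by identifier. Intervals are exact Clopper-Pearson. The additive quasi-likelihood fit used medium and inhibitor as terms. Named genes were those past 1.5-fold in any comparison, genes fixed by name, and the highest and lowest of each role; Ppt1, Man2b1, Atp6v1e1, and those given by ratio alone, are beyond that rule. Procedures were tested on simulated data. Alternatives were DESeq2 1.42.0 size factors, total counts, other filters, 5 reads as the prior, only protein-coding genes and a 1.5-fold threshold. The background of genes with at least 200 reads was added after seeing the data. Python 3.11.15, numpy 2.4.6, pandas 2.3.3, scipy 1.17.1 and matplotlib 3.10.9 were used.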

Additional observations from a re-analysis of the deposited data

Results flagged for a closer look

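Atp6v0e, the small e subunit of the V-ATPase, had ratios of 4T1-CM to normal medium of opposite sign in the absence and presence of CH223191, and it did not pass edgeR's additive fit for the medium (adjusted p = 0.318). Its log2 ratio was 0.65 with DMSO, past 1.5-fold, and -0.16 with CH223191, with a counting interval below 0. The difference between these ratios was not tested, since each condition has 1 library. The library of normal medium with DMSO held the lowest level of the 4, 82.6 RPKM against 108 to 130.0 in the others. Its longest coding sequence has 312 bases, and genes under 500 coding bases had a median ratio of -0.14 with DMSO and -0.40 with CH223191; the part of coding length was not tested.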

How the results depend on the processing

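With 1 library per condition, no replicate could be left out, and no paired analysis was possible because no condition has a second library. Depth did not limit the 47 genes, whose lowest count was 241 reads; the single libraries do. At 1.5-fold in place of 2-fold, the counts under 4T1-CM were 3 higher and 10 lower with DMSO, 2 higher and 11 lower with CH223191, and 2 higher and 7 lower in both comparisons, and CH223191 in normal medium gave 2 higher. With total counts, the median ratio of CH223191 to DMSO in normal medium was -0.0636 and 1 gene was 1.5-fold higher. No other median or count moved beyond its counting interval or 1.5 times under the 6 settings of scaling, filter and prior. Of the 188 ratios of single genes, 40 moved beyond their counting error with total counts. At most 6 did so under any other of these settings. The largest shift of a ratio under these 6 settings was 0.06, with total counts; adding the reads of Atp6v0c-ps2 to those of Atp6v0c, an alternative chosen after seeing the data, moved its ratios by up to 0.74. With at least 10 reads in every library or protein-coding genes alone, both added after seeing the data, the additive fit called 21 and 20 genes for 4T1-CM and 0 for CH223191.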
